A study of Mus musculus with 2 samples.

Results

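S100 proteins are small calcium-binding proteins of the EF-hand type, and 8 of their genes were described here across cells from the cornea and limbus of the mouse: S100a8, S100a9, S100a4, S100a6, S100a10, S100a11, S100a14 and S100a16. They were taken by gene symbol from a fixed list, and all 8 had a row in both count matrices. They are 8 of 17 S100 genes and 8 of 27998 features in those matrices. The members were chosen by their levels and genotype ratios in these same counts, so the levels by cell layer and by genotype below are descriptions and not tests.

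The study profiled single cells of the ocular anterior segment with the 10x Genomics droplet protocol, in which each counted molecule carries a unique molecular identifier (UMI). The groups were 1 library from a female mouse labelled Beclin1 +/-, called the Becn1 heterozygote here, and 1 library from a female wild-type (WT) littermate, both 28 days old and of C57BL/6 background. Becn1 encodes beclin 1, which acts in the start of autophagosome formation, and per the study's title the question was how autophagy bears on the limbal and corneal epithelial stem and early progenitor population. With 1 animal and 1 library per genotype, genotype, animal and preparation cannot be told apart, no p-value can be had, and every interval below covers counting error only.

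Most S100 proteins work as dimers that expose a binding surface when calcium binds, and through it they dock on annexins, cytoskeletal proteins and other partners. S100a8 and S100a9 form calprotectin, a metal-chelating antimicrobial complex abundant in neutrophils and induced in stressed keratinocytes. S100a10 and S100a11 bind annexins at membranes, S100a6 and S100a4 are linked to proliferating and motile cells, and S100a14 and S100a16 are found widely in epithelia.

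Cells were placed in 5 gates by marker level in CPM, the UMIs of a gene scaled to a fixed total per cell or pool. Limbal cells had at least 500 CPM of Gpha2, a limbal glycoprotein hormone subunit, with at least 2000 CPM of the basal keratin Krt14. Basal cells had at least 2000 CPM of Krt14 with at least 8000 CPM of the corneal keratin Krt12. Wing cells, the middle layer, had at least 20000 CPM of Krt12 with less than 2000 CPM of Krt14. Surface cells had at least 1000 CPM of the cornified envelope gene Lce3a, and stromal cells at least 5000 CPM of the proteoglycan gene Dcn. The heterozygote library gave 366 limbal, 1551 basal, 978 wing, 117 surface and 1333 stromal cells, and the WT library 232, 857, 521, 53 and 557. A further 721 heterozygote and 304 WT cells passed no gate.

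The libraries differed in depth and in their lowest barcode. After doublet removal the heterozygote library held 4942 cells with a median of 11334 UMIs and a lowest cell of 5430 UMIs, against 2462 cells, 16884 UMIs and 8089 UMIs in the WT library. The gates overlapped, with 124 heterozygote and 62 WT cells passing more than 1, of which 102 and 45 were both limbal and basal. The libraries shared 15 barcode sequences. Becn1 itself was counted at 42.9 CPM in the heterozygote library (95% Poisson interval 41.3 to 44.4) and 42.6 CPM in the WT library (40.9 to 44.4), so its level did not separate the libraries. Where the gene is disrupted is not stated in the labels, and the level is therefore no check on the genotype. The marker lists for these gates include the genes that define them (Gpha2 and Krt14, Lce3a, and Dcn). High sums there follow in part from the gating and are no check on it. The 5 limbal basal markers summed to 15641 CPM in heterozygote and 16514 CPM in WT limbal cells, against 6799 and 7014 CPM in basal cells. The 5 superficial markers summed to 56005 and 55644 CPM in surface cells, against 386 and 265 CPM in limbal cells. The 5 keratocyte markers summed to 74691 and 79130 CPM in stromal cells, against 508 and 663 CPM in limbal cells.

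All 8 genes lie on chromosome 3 (GRCm38, GENCODE annotation, matched by the files' own gene identifiers). S100a14 (90526856 to 90528837), S100a16 (90537254 to 90543151), S100a4 (90603771 to 90606045), S100a6 (90612882 to 90624181), S100a8 (90668978 to 90670035) and S100a9 (90692632 to 90695721) form 1 group. S100a11 (93520488 to 93526287) and S100a10 (93555080 to 93564643) stand next to each other farther along. All are on the plus strand except S100a9. Lce3a, the gene that defines the surface gate, lies between the groups (92925287 to 92926230).

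The start regions of 5 members are printed for 1 simple feature. It differed between members counted in a minority of cells in most gates and those read in nearly every cell. That grouping comes from these same counts, and a link between it and the feature was not tested. Each region runs from 150 bases before the annotated start site through 30 bases from it, 5′ to 3′ on the gene's own strand (RefSeq, GRCm38.p6), with motif matches in capitals. The windows are chr3:90668921-90669100 (plus strand), chr3:90695692-90695871 (minus), chr3:90603620-90603799 (plus), chr3:90612744-90612923 (plus) and chr3:93520346-93520525 (plus).
S100a8: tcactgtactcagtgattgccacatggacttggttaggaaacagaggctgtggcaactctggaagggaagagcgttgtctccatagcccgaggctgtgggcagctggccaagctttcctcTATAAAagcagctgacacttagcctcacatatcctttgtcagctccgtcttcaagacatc
S100a9: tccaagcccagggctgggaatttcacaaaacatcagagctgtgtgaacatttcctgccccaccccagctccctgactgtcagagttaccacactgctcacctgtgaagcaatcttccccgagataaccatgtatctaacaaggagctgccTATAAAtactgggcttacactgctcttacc
S100a4: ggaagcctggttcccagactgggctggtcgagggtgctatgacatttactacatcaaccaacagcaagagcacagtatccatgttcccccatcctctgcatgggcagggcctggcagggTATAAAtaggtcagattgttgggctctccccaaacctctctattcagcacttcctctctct
S100a6: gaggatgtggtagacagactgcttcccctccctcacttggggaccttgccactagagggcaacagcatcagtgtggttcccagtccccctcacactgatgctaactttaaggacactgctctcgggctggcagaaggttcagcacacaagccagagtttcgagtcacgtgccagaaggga
S100a11: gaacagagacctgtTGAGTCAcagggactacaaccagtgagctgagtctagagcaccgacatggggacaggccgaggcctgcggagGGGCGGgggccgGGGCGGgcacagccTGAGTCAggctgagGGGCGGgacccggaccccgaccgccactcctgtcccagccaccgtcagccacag

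The motifs searched, on both strands and over windows from 250 bases before the start site through 50 bases from it, were TATAAA (the TATA box), TGANTCA (the AP-1 site), GGGCGG (the GC box) and TTGCNNAA (a C/EBP core). TATAAA was in the windows of S100a8, S100a9 and S100a4, the matched members with a UMI in the smallest shares of cells, and in those of S100a6, S100a11 and S100a16 it was not. It began 30 bases before the annotated start in S100a8, 31 bases before it in S100a4 and at the annotated start itself in S100a9, where that start may lie upstream of the one in use, so its offset is not to be set beside the others. S100a11 held 2 matches of TGANTCA and 3 of GGGCGG. S100a9 held 1 match each of GGGCGG and TTGCNNAA, and the window of the second S100a16 start 1 each of TGANTCA and GGGCGG. No match overlapped another in any member's window. Of 7 member windows, 3 held TATAAA, 2 TGANTCA, 3 GGGCGG and 1 TTGCNNAA. Of 32851 mouse promoter windows of the same length, 13.6% held TATAAA, 7.81% TGANTCA, 35.7% GGGCGG and 10.8% TTGCNNAA. A match of letters is a description of the window and not a binding site. The RefSeq table gave 7 windows for 6 of the members, S100a16 having 2, and S100a10 and S100a14 were not matched.

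Together the 8 genes made up a large part of the RNA counted in surface cells. Their summed share of all UMIs was 5.95% in heterozygote and 5.99% in WT surface cells. The share was 3.23% and 2.71% in wing cells, 2.25% and 2.06% in basal cells, 2.02% and 1.88% in limbal cells, and 0.648% and 0.607% in stromal cells. S100a6 alone held 2.84% and 2.88% of surface UMIs.

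**Figure D1:**
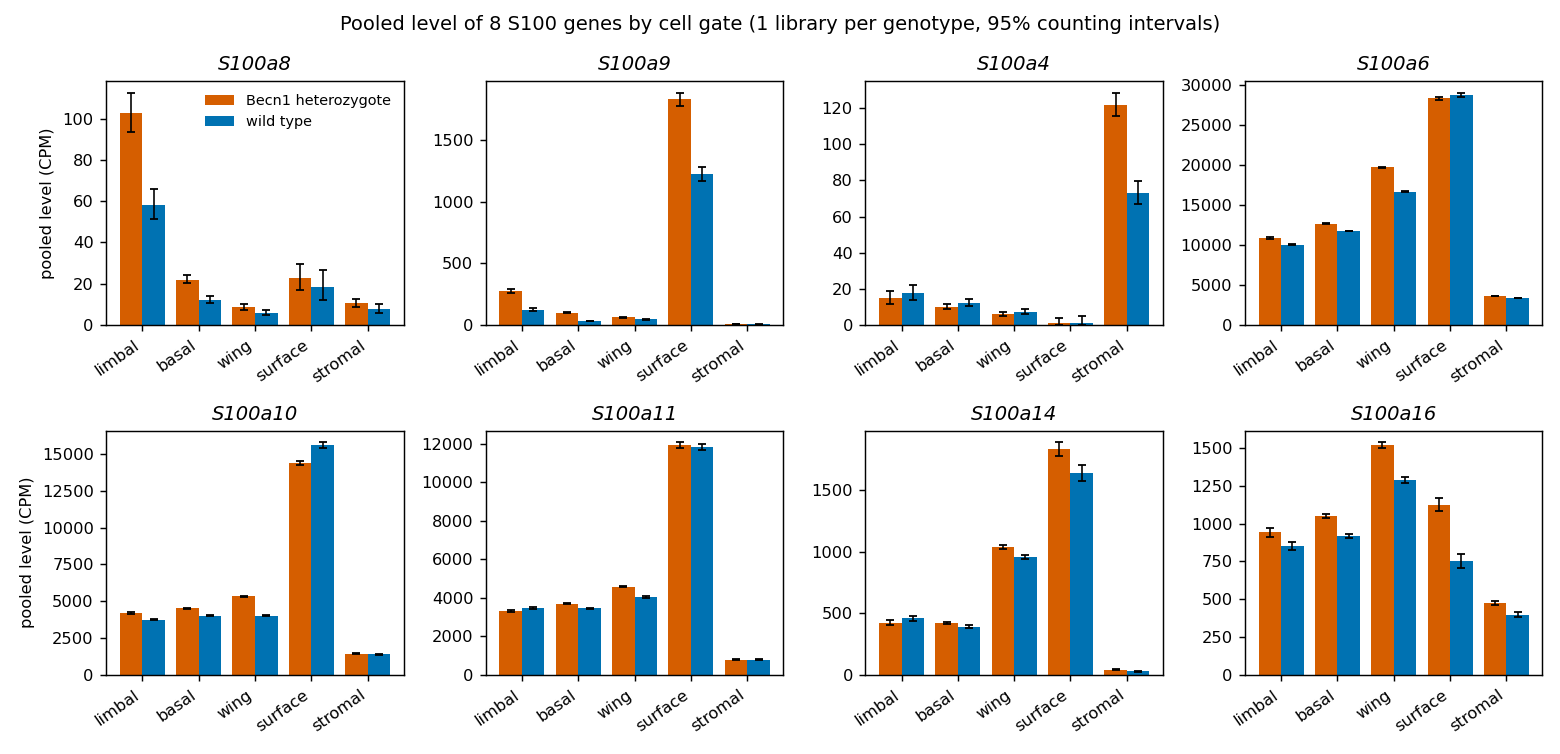
Pooled level of each S100 gene in CPM (linear axes that differ between panels) by gate, with the Becn1 heterozygote library left of the WT library and bars for the exact 95% Poisson interval. S100a8 is highest in limbal cells, S100a4 in stromal cells, S100a16 in wing cells and the other 5 in surface cells, in both libraries.

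S100a8 was the only one of the 8 with its highest level in limbal cells in both libraries. Its pooled level in the heterozygote library was 102.8 CPM in limbal, 22.0 in basal, 8.80 in wing, 22.6 in surface and 10.7 in stromal cells. In the WT library it was 58.3, 12.3, 5.96, 18.4 and 7.91 CPM. The order of gates was the same in both libraries, and the intervals of surface and basal cells, and of stromal and wing cells, overlapped. Limbal over basal, the log2 ratio was 2.22 (2.04 to 2.41) in the heterozygote and 2.24 (1.97 to 2.51) in the WT library.

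The S100a8 counts came from few cells. After every cell was thinned to 5430 UMIs, 45 of 366 heterozygote limbal cells had an S100a8 UMI (12.3%, exact binomial interval 9.11 to 16.1), against 10 of 232 WT limbal cells (4.31%, 2.09 to 7.78). Stromal cells, set beside them for comparison, gave 2.25% (1.52 to 3.20) and 2.69% (1.51 to 4.40), so the interval of the heterozygote limbal share lay above the stromal one and that of the WT limbal share overlapped it. The stromal S100a8 UMIs were not spread evenly, with up to 23 in 1 cell of each library, and whether they are free RNA was not tested. Without thinning the limbal shares were 17.2% and 5.60%, at median depths of 10214 and 14625 UMIs, and the stromal shares 3.38% and 4.31%, at 8165 and 11693 UMIs. One WT limbal cell held 144 of that gate's 246 UMIs (58.5%), and the WT level without it was 24.3 CPM. The highest heterozygote limbal cell held 49 of 470 UMIs, and the level without it was 92.3 CPM.

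Among cells counted as limbal and basal at once, S100a8 was seen in the heterozygote library only. The 102 such heterozygote cells had 94.2 CPM from 147 UMIs, with 49 and 38 in the 2 highest cells, and 63.2 CPM without the highest. The 45 such WT cells had no S100a8 UMI (exact upper limit 4.91 CPM). That limit takes UMIs as independent, whereas S100a8 UMIs lay in few cells, and the difference was not tested. Basal cells outside the limbal gate had 16.6 CPM in the heterozygote and 12.9 CPM in the WT library.

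S100a9, the partner of S100a8 in calprotectin, was highest in surface cells and second in limbal cells. In the heterozygote library its level was 277 CPM in limbal, 100.1 in basal, 62.2 in wing, 1828 in surface and 9.13 in stromal cells. The WT library had 126, 33.6, 47.8, 1220 and 5.12 CPM. Surface over basal, the log2 ratio was 4.19 (4.12 to 4.26) in the heterozygote and 5.18 (5.05 to 5.32) in the WT library, the largest among the 8 genes in any gate. Limbal over basal it was 1.47 (1.37 to 1.57) and 1.91 (1.73 to 2.08). Wing cells stood below basal cells in the heterozygote library (-0.69, -0.79 to -0.58) and above them in the WT library (0.51, 0.35 to 0.67).

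S100a9 was read in more cells than S100a8. With cells thinned to 5430 UMIs, 72.6% of heterozygote and 69.8% of WT surface cells had an S100a9 UMI. The limbal shares were 38.0% (33.0 to 43.2) and 22.0% (16.8 to 27.9), and the basal shares 17.1% (15.2 to 19.05) and 7.23% (5.59 to 9.18). Stromal cells gave 4.58% and 2.69%. Without thinning the limbal shares were 49.2% and 29.3%, and the basal shares 26.0% and 15.2%. The highest S100a9 cell of each basal gate, with 210 UMIs in the heterozygote and 62 UMIs in the WT library, also passed the surface gate.

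Surface cells differed widely among themselves in S100a9. Per-cell levels at the 25th, 50th and 75th percentiles were 93.8, 643 and 2637 CPM in heterozygote surface cells and 78.4, 346 and 2152 CPM in WT surface cells. At least 20 UMIs were counted in 54 of 117 heterozygote and 22 of 53 WT surface cells.

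The S100a9 and S100a8 transcripts were not counted in 1 fixed ratio. There were 80.8 S100a9 UMIs per S100a8 UMI (61.8 to 108) in heterozygote surface cells and 66.3 (45.7 to 100.03) in WT surface cells. In limbal cells the ratio was 2.70 (2.42 to 3.003) and 2.16 (1.85 to 2.52), and in stromal cells 0.854 (0.652 to 1.12) and 0.648 (0.411 to 1.01). The intervals of the surface ratio lay apart from those of every other gate in both libraries. Within heterozygote limbal cells, 30 of 45 thinned cells with an S100a8 UMI also had an S100a9 UMI (66.7%, 51.05 to 80.0), against 109 of 321 cells without S100a8 (34.0%, 28.8 to 39.4). In the WT library the counts were 4 of 10 and 47 of 222 cells, with intervals of 12.2 to 73.8% and 15.99 to 27.1% that overlap.

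Markers of other cell types were compared in the same cells. The 10 neutrophil markers summed to 7 UMIs (1.53 CPM) in heterozygote and 11 UMIs (2.61 CPM) in WT limbal cells, with 3 of the 10 genes seen in each, and to 1 and 0 UMIs in the limbal cells that held S100a8. In basal cells the neutrophil list summed to 2.39 CPM (53 UMIs, 45 of them Ltf) in the heterozygote and 0.468 CPM (8 UMIs) in the WT library. The 11 macrophage and dendritic cell markers were higher in heterozygote limbal (15.5 against 6.64 CPM in WT) and basal cells (16.3 against 3.16 CPM). They were lower in heterozygote wing (5.55 against 24.4 CPM) and stromal cells (51.0 against 154 CPM), and surface cells had 2.51 against 1.31 CPM. S100a9 was higher in the heterozygote library in each gate. Lyz2 and the complement genes C1qa and C1qb gave most of the heterozygote basal sum. The 4 mast cell markers summed to 12.2 CPM in heterozygote basal cells and had no UMI in WT basal cells or in limbal cells of either library. On the surface the neutrophil list summed to 240 and 137 CPM, of which Ltf (lactoferrin) gave 240 and 136 CPM, and Retnlg, Csf3r, Cxcr2, Ly6g, Ngp and Camp were at 0 in both libraries. The 4 conjunctival markers summed to 433 CPM in heterozygote and 920 CPM in WT limbal cells, and to 172 and 131 CPM in basal cells. In wing cells they summed to 832 and 892 CPM and in surface cells to 2260 and 2179 CPM. Which cells these transcripts came from was not tested. The 5 keratocyte markers summed to 205 CPM in the 63 heterozygote and 5260 CPM in the 13 WT limbal cells that held S100a8, against 579 and 424 CPM in limbal cells without it, and the part of any of these lists in the S100a8 and S100a9 levels was not tested.

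**Figure D2:**
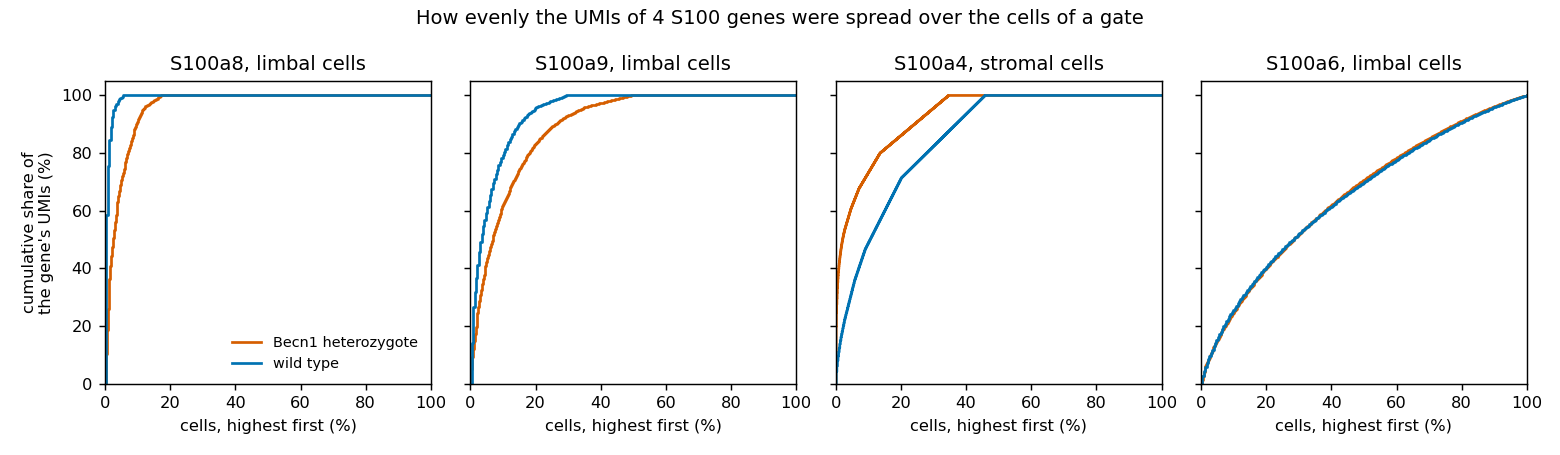
Cumulative share of a gene's UMIs (vertical axis, %) against the share of the gate's cells, ordered from the highest cell (horizontal axis, %), for the Becn1 heterozygote and WT libraries. The first WT limbal cell holds 58.5% of S100a8 UMIs, the heterozygote curve for S100a4 in stromal cells climbs faster than the WT curve, and S100a6 is spread almost alike in both libraries.

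S100a4, a protein of motile and mesenchymal cells that binds non-muscle myosin, was the stromal member of the list. It had 122 CPM in heterozygote and 73.2 CPM in WT stromal cells. In the epithelium the heterozygote library gave 14.9 CPM in limbal, 10.1 in basal, 5.94 in wing and 1.26 in surface cells, and the WT library 17.5, 12.4, 7.28 and 1.31 CPM. The order of the gates was the same in both libraries, and the surface values rest on 3 and 2 UMIs. Stromal over basal, the log2 ratio was 3.60 (3.40 to 3.81) and 2.56 (2.33 to 2.80).

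The higher stromal level in the heterozygote library lay in few cells. The 3 highest heterozygote stromal cells held 159, 121 and 65 S100a4 UMIs, against 21, 10 and 9 UMIs in the WT library. At least 20 UMIs were counted in 9 of 1333 heterozygote and 1 of 557 WT stromal cells. Thinned to 1 depth, 26.3% of heterozygote (24.0 to 28.8) and 29.3% of WT stromal cells (25.5 to 33.2) had an S100a4 UMI, so the share of cells was not higher where the level was. Without thinning the shares were 34.7% and 45.8%. With each cell capped at the gate's 99th percentile the levels were 83.4 CPM in the heterozygote and 70.8 CPM in the WT library.

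S100a4 was higher in stromal cells with little keratocan in both libraries, by more in the heterozygote library. Stromal cells were split at 1000 CPM of Kera, the keratocyte proteoglycan keratocan, a split chosen after the data had been seen. S100a4 had 287 CPM in the 372 heterozygote cells with low Kera and 66.7 CPM in the 961 with high Kera, and 89.9 CPM and 68.5 CPM in the WT library. The 3 highest heterozygote cells had 63.8, 290 and 40.8 CPM of Kera and 22081, 8905 and 7915 CPM of Dcn. The 3 highest WT cells, with far fewer S100a4 UMIs, had 4301, 2347 and 4498 CPM of Kera. The 9 heterozygote cells with at least 20 S100a4 UMIs held 12.7 CPM of the 11 macrophage and dendritic cell markers, summed from 2 UMIs, and none of the 10 neutrophil markers. The 2 mural cell markers summed to 134 CPM in these 9 cells (21 UMIs) and to 18.0 CPM in the other 1324 heterozygote stromal cells. The 5 keratocyte markers summed to 36481 CPM in the 9 cells and to 75220 CPM in the others. Over all stromal cells the macrophage and dendritic cell list summed to 51.0 CPM in the heterozygote and 154 CPM in the WT library, and the mural list to 19.6 and 28.3 CPM. The part of these cell types in the S100a4 levels was not tested.

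The same split separated other members. S100a6, S100a10 and S100a11 were higher in Kera-low stromal cells, by log2 ratios of 0.83, 0.61 and 0.77 in the heterozygote and 0.52, 0.80 and 0.84 in the WT library. S100a16 was lower there, by -0.47 and -0.63.

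S100a6, known as calcyclin and a binder of the ubiquitin ligase adaptor Cacybp, was read in every cell of all 5 gates in both libraries even after thinning. Its level in the heterozygote library was 10885 CPM in limbal, 12670 in basal, 19769 in wing, 28377 in surface and 3613 in stromal cells. The WT library had 10071, 11779, 16697, 28812 and 3401 CPM. The order was the same in both libraries with no overlap of neighbouring intervals. Surface over basal, the log2 ratio was 1.16 (1.15 to 1.18) and 1.29 (1.28 to 1.31).

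S100a10, the small subunit of the complex with annexin A2 that binds plasminogen, was concentrated at the surface. It had 4205 CPM in limbal, 4505 in basal, 5324 in wing, 14382 in surface and 1437 in stromal cells of the heterozygote library. The WT library had 3746, 4020, 4025, 15595 and 1378 CPM, and its wing and basal intervals overlapped. Surface over basal, the log2 ratio was 1.67 in the heterozygote and 1.96 in the WT library.

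S100a11, which binds annexin A1 and takes part in keratinocyte growth control, followed the same course. Levels were 3329 CPM in limbal, 3680 in basal, 4572 in wing, 11937 in surface and 777 in stromal heterozygote cells, and 3475, 3444, 4041, 11834 and 783 CPM in WT cells. Limbal and basal intervals overlapped in the WT library. Wing over basal, the log2 ratio was 0.24 and 0.002 for S100a10 and 0.31 and 0.23 for S100a11 in the heterozygote and WT libraries. For S100a6 it was larger, at 0.64 and 0.50. Both S100a10 and S100a11 were more than 2-fold higher in surface than in basal cells.

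S100a14, an epithelial member of the family, was higher in each layer from basal to wing to surface. It had 424 CPM in limbal, 424 in basal, 1037 in wing and 1834 in surface cells of the heterozygote library, and 458, 392, 955 and 1636 CPM in the WT library. Wing over basal the log2 ratio was 1.29 in both libraries, and surface over basal 2.11 and 2.06. Stromal cells had 42.4 CPM in the heterozygote and 26.5 CPM in the WT library, with an S100a14 UMI in 19.7% and 13.8% of thinned cells. Krt12, an epithelial keratin, was counted in the same stromal cells at 1246 and 958 CPM, higher in the heterozygote library as well, and its part in the stromal S100a14 level was not tested.

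On the CPM scale S100a16 was the only one of the 8 with its highest level in wing cells in both libraries. It had 942 CPM in limbal, 1047 in basal, 1519 in wing, 1122 in surface and 472 in stromal heterozygote cells, and 853, 919, 1288, 752 and 397 CPM in WT cells. Surface over basal, the log2 ratio was 0.10 (0.04 to 0.16) in the heterozygote and -0.29 (-0.38 to -0.20) in the WT library. With TMM scaling it was 1.53 and 1.08, above the wing over basal ratios of 0.59 and 0.38. The wing peak therefore depends on the scaling. In CPM, its highest gate exceeded its lowest by 3.21-fold and 3.24-fold, the narrowest range of the 8 genes in both libraries.

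**Figure D3:**
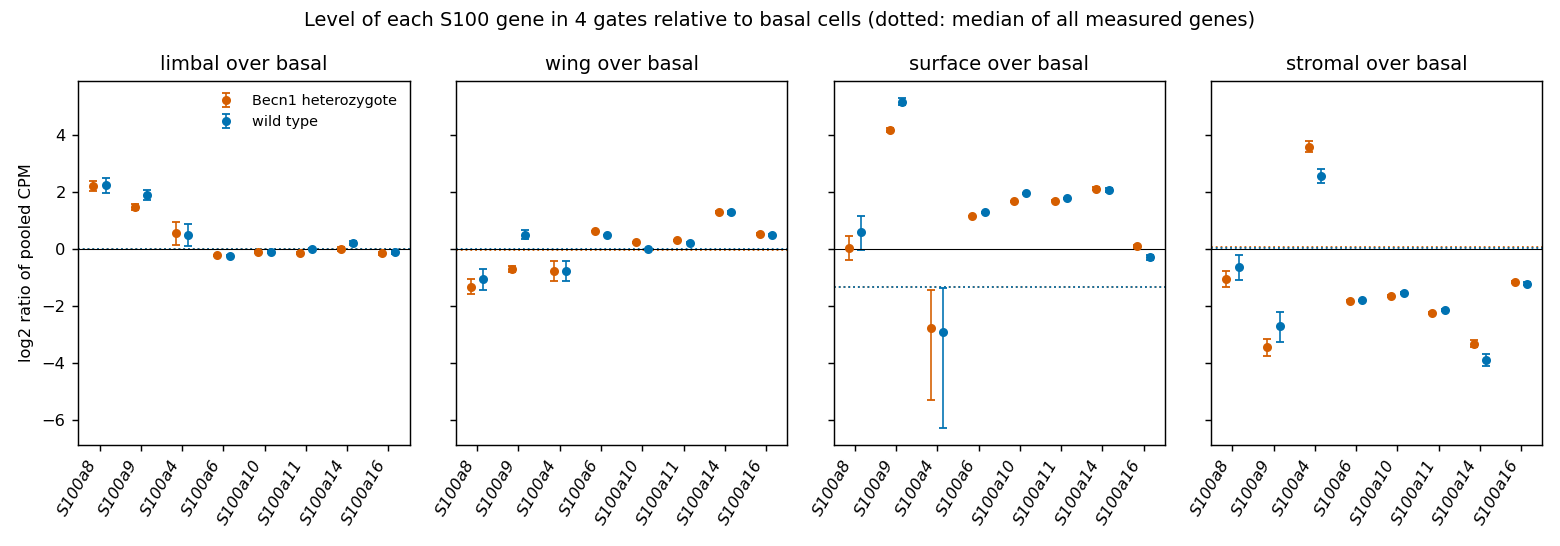
Log2 ratio of pooled CPM in limbal, wing, surface and stromal cells over basal cells (vertical axis) for each S100 gene, with the Becn1 heterozygote left of the WT library, exact 95% counting intervals, and dotted lines at the median of all measured genes. S100a9 reaches 4.19 and 5.18 in surface cells, where the median gene is at -1.35 and -1.33, and S100a4 alone is above 0 in stromal cells.

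Counts of members past a size threshold were read against all genes. A gene was counted when it had a mean of at least 20 CPM over the gates compared and was at least 1.5-fold higher or lower than in basal cells in both libraries. In surface cells 5 of the 6 members with that level were higher (S100a9, S100a6, S100a10, S100a11 and S100a14) and none lower, where 19.7% of 3553 genes were higher and 61.7% lower. In limbal cells 2 of 7 were higher (S100a8 and S100a9), where 6.23% of 4237 genes were, and none lower, where 5.50% were. In wing cells 1 of 6 was higher (S100a14), where 14.9% of genes were, and none lower, where 12.1% were. S100a6 stood just outside in the WT library with a log2 ratio of 0.50 and inside in the heterozygote library with 0.64. In stromal cells 1 of 7 was higher (S100a4), where 30.8% of genes were, and the other 6 were lower, where 24.9% were. The members were listed from these levels, so the counts describe the list and nothing is read from them.

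The size of the surface ratios depends on the scaling. The median of all genes in surface over basal cells was -1.35 in the heterozygote and -1.33 in the WT library with CPM, and under TMM scaling each ratio was 1.43 and 1.37 higher. The median of the 6 measured members was 1.69 and 1.87 on the CPM scale. In stromal over basal cells TMM scaling lowered every ratio by 0.25 and 0.28 (log2 shifts of -0.25 and -0.28), which left the direction of all 8 members as it was.

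Becn1 heterozygote over WT, most of the 8 genes differed little within a gate. The central 90% of log2 ratios over all genes ran from -0.38 to 0.31 in limbal, -0.28 to 0.26 in basal, -0.40 to 0.27 in wing, -0.65 to 0.62 in surface and -0.35 to 0.28 in stromal cells. S100a6, S100a10, S100a11 and S100a14 had log2 ratios between -0.12 and 0.24 in all gates, except S100a10 in wing cells (0.40) and S100a14 in stromal cells (0.68). S100a16 was higher in the heterozygote library in each gate, from 0.14 in limbal to 0.58 in surface cells.

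S100a9 had the largest genotype ratios among the measured members in limbal and basal cells. Its log2 ratio was 1.14 (0.99 to 1.29) in limbal, 1.57 (1.44 to 1.71) in basal, 0.38 in wing and 0.58 in surface cells. S100a8 had 0.82 (0.59 to 1.05) in limbal cells, and in basal cells 0.83 at levels of 22.0 CPM in the heterozygote and 12.3 CPM in the WT library. S100a4 was lower in the heterozygote library in every epithelial gate, by -0.24, -0.30, -0.29 and -0.16 from limbal to surface. Only the basal interval (-0.58 to -0.03) was away from 0, and the limbal sign turned positive in 1 of 8 alternatives and the surface sign in 3. In stromal cells S100a4 was higher, by 0.74 (0.59 to 0.89). Without its highest cell the S100a8 ratio in limbal cells was 1.92, as the highest WT cell held 144 UMIs and the highest heterozygote cell 49.

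At the threshold of 1.5-fold and 20 CPM, 2 of 7 measured members were higher in heterozygote limbal cells (S100a8 and S100a9), where 0.919% of 4244 genes were. In basal cells 1 of 6 was higher (S100a9), where 1.09% were, and in stromal cells 2 of 6 (S100a4 and S100a14), where 0.849% were. No member was past the threshold in wing cells, where 0.491% of genes were higher, or in surface cells, where 5.90% were. S100a9 and S100a16 lay just outside it in surface cells at log2 ratios of 0.583 and 0.578, against a threshold of 0.585. No measured member was 1.5-fold lower, where 1.37% of genes were lower in limbal, 0.410% in basal, 1.15% in wing, 6.88% in surface and 1.07% in stromal cells. There is no test behind these counts, and S100a8 and S100a9 were listed for their levels in these cells.

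**Figure D4:**
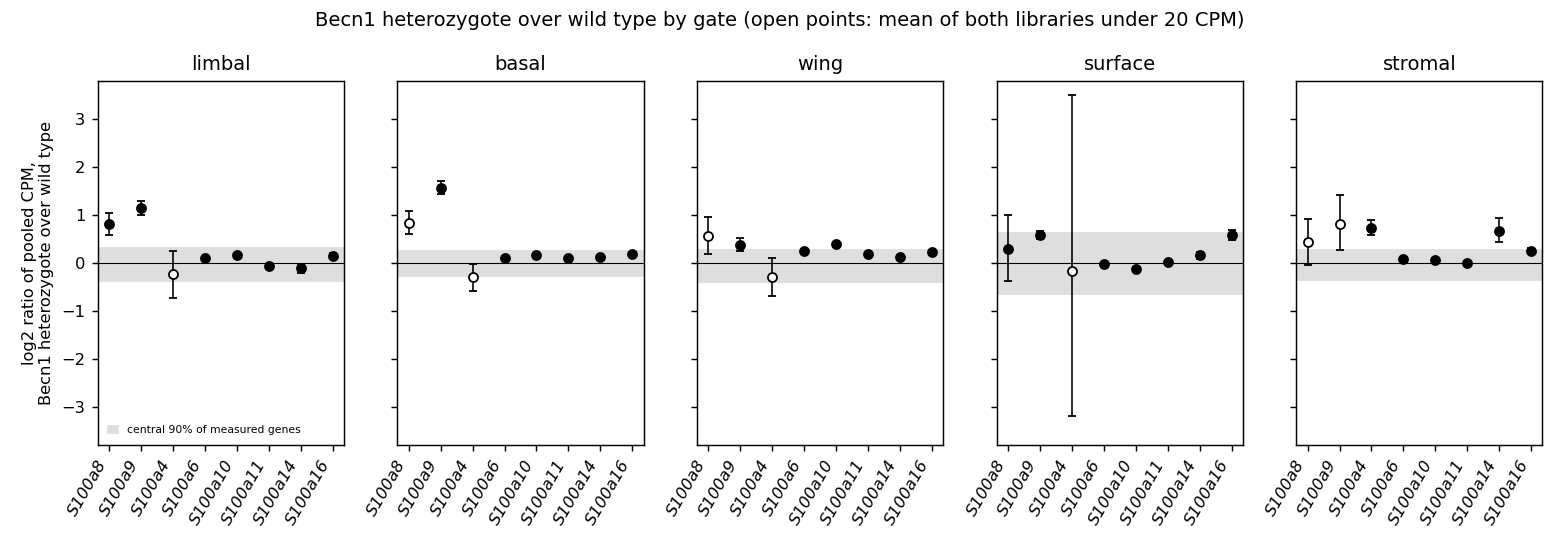
Log2 ratio of pooled CPM, Becn1 heterozygote over WT (vertical axis), for each S100 gene in each gate, with exact 95% counting intervals. Grey bands hold the central 90% of all measured genes and open points have a mean under 20 CPM. S100a9 is at 1.14 in limbal and 1.57 in basal cells, outside the band, and S100a6, S100a11 and S100a14 lie within the band in limbal, basal, wing and surface cells.

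Over the 10 pools of 5 gates and 2 libraries, S100a6, S100a10, S100a11 and S100a14 had like profiles. Pearson r of log2(CPM + 10) was 0.99 between S100a6 and S100a14, 0.98 between S100a6 and S100a11 and 0.98 between S100a10 and S100a11. S100a4 ran opposite, with -0.98 against S100a6. S100a16 was less alike, with 0.80 against S100a6, 0.59 against S100a10, 0.70 against S100a11 and 0.84 against S100a14. S100a9 had 0.81 against S100a6, 0.93 against S100a10, 0.89 against S100a11 and 0.79 against S100a14. Against S100a16 it had 0.42, and against S100a8 0.45. The pools of a library share its depth and animal, so these values describe the shapes of the profiles and no p is given.

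Within single layers the co-variation differed. Over wing cells thinned to 1 depth, r was 0.69 in the heterozygote and 0.63 in the WT library between S100a6 and S100a10, 0.68 and 0.62 between S100a6 and S100a11, and 0.69 and 0.61 between S100a10 and S100a11. Over limbal cells the same pairs had 0.15 and 0.05, 0.18 and 0.11, and 0.29 and 0.22. The wing gate sets no upper limit on differentiation and the difference between gates was not tested.

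**Figure D5:**
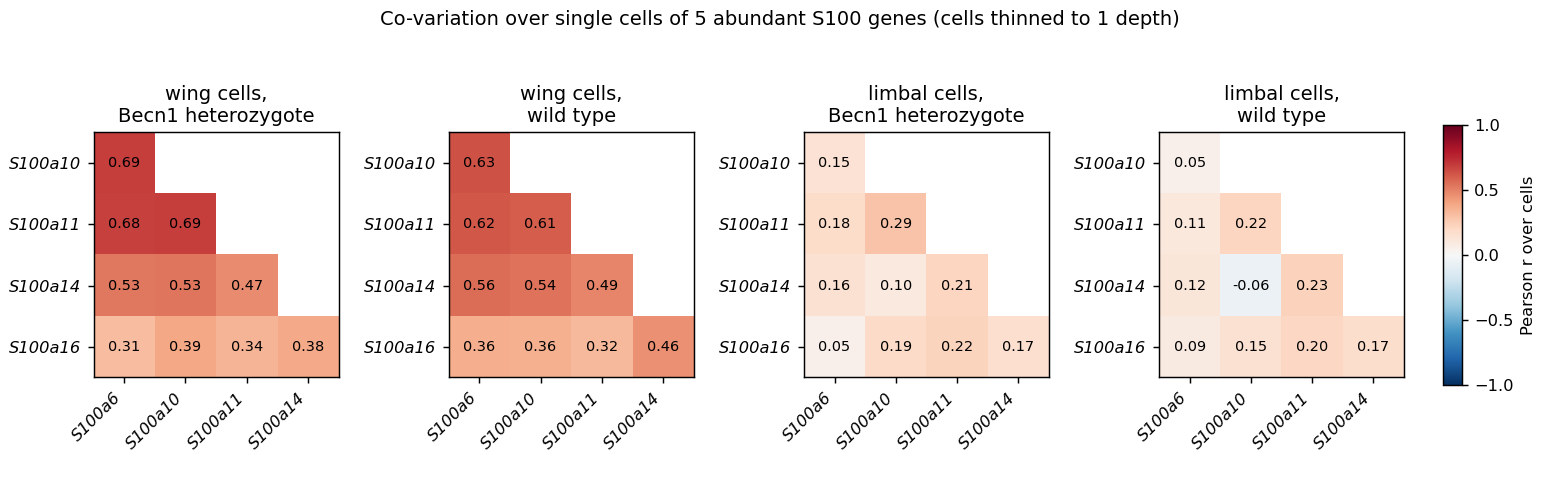
Pearson r over cells (colour scale from -1 to 1, value printed in each field) between 5 abundant S100 genes after thinning each cell to 5430 UMIs, in wing and limbal cells, each with the Becn1 heterozygote left of the WT library. Values in wing cells run up to 0.69 and in limbal cells up to 0.29.

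For each member the 3 genes of most similar profile over the 10 pools were found among 4323 genes that averaged 20 CPM or more. S100a8 was closest to Lcn2 (r = 0.96), the iron-scavenging lipocalin, Csrp1 (0.96) and Wfdc18 (0.93). Lcn2 had 153 CPM in heterozygote and 84.9 CPM in WT limbal cells. S100a9 was closest to Zc3h12a (0.97), an RNase that limits cytokine transcripts, Il1f6 (0.97), which encodes interleukin-36 alpha, and Ly6e (0.96). S100a4 was closest to Fjx1 (0.99), Tmed1 (0.99) and Camk2d (0.99).

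S100a6, S100a10, S100a11 and S100a14 had neighbours at an r of at least 0.988. These were Ifngr1, Mbp and Smagp for S100a6, Sft2d2, Folr1 and Prss23 for S100a10, Psme1, Grpel2 and Actg1 for S100a11, and Smagp, Vps4b and Mbp for S100a14. S100a16 was closest to Sprr1a (0.98), a cornified envelope precursor with 1355 CPM in heterozygote and 1294 CPM in WT wing cells, Znrf2 (0.97) and Tor1aip2 (0.97).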

How the data were processed

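The 2 deposited matrices hold raw UMI counts by the authors (27998 features by barcodes). Cell Ranger 2.1.1 and the mm10 build are named in the submitters' processing notes. How barcodes were called, and with which annotation, is not given in the sources used here. Matrices held 5155 (74363359 UMIs) and 2513 barcodes (54913980 UMIs) in the Becn1 heterozygote and WT libraries. Doublets were scored per library with Scrublet in scanpy 1.11.5, and 213 and 51 barcodes were removed (0.8% per 1000 barcodes). No other cell filter was applied. Free RNA was not corrected for.

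Raw counts were summed per gate and library and divided by the UMIs of that pool to give CPM. Intervals are exact Poisson for levels, exact binomial for shares and exact conditional for ratios, at 95%, with 0.5 added to each count before log2. UMIs count captured molecules, and how well each gene was captured was not measured. Levels therefore compare 1 gene between cells, and ratios or shares between genes compare UMIs counted only. Genes averaging 20 CPM or more over both pools entered the counts at 1.5-fold. Shares and cell correlations used cells thinned to 5430 UMIs (log2 of count + 1 for correlations). Figures used matplotlib 3.10.9, arithmetic used numpy 2.4.6, pandas 2.3.3 and scipy 1.17.1 under Python 3.11.15, and edgeR 4.0.16 gave TMM factors only. The steps were tested on simulated data.

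The members, gene lists and gates were chosen with earlier results of these data known. Besides the members, levels were given for S100 genes and partners with at least 20 CPM in 1 gate of both libraries. The 3 genes closest to each member in profile were named too. Other listed S100 genes, partners and receptors were named only as low or without a UMI. Becn1, gate genes and genes of the cell type marker lists were named as well. Flg, whose symbol stands on 7 rows, was not used.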

Additional observations from a re-analysis of the deposited data

Results flagged for a closer look

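S100a9 stood on opposite sides of basal cells in the wing layer of the 2 libraries. Wing over basal, its log2 ratio was -0.69 in the Becn1 heterozygote library and 0.51 in the WT library. Wing levels were 62.2 and 47.8 CPM and basal levels 100.1 and 33.6 CPM, so the basal level differed more between the libraries than the wing level. The sign was the same under each of the 8 alternatives tried. The difference was not tested, since each library is 1 animal.

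S100a4 differed between genotypes in opposite directions in stroma and epithelium. Becn1 heterozygote over WT, the log2 ratio was 0.74 in stromal cells and -0.30 in basal cells, where levels were 10.1 and 12.4 CPM. In stromal cells the level rested on few cells, with 40.8% of heterozygote and 12.4% of WT S100a4 UMIs in the top 1% of cells. This difference was not tested either. Both patterns were listed because the signs were opposite and each size was at least 1.2-fold with an interval away from 0, a size chosen after the values had been seen.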

How the results depend on the processing

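No sign reversed among the ratios past 1.5-fold, counted here with no minimum level. Past it were 7 of 40 Becn1 heterozygote over WT ratios and 41 of 64 gate over basal ratios. All kept their sign under the 8 alternatives that applied to ratios, and 4 and 36 stayed past 1.5-fold in each. The 7 include S100a8 in basal and S100a9 in stromal cells, which averaged under 20 CPM. The 41 include the S100a4 surface ratios, which rest on 3 and 2 surface UMIs. Counts of members past the threshold of 1.5-fold and 20 CPM moved in surface, stromal and limbal cells. In surface cells the count of 0 became 1 without doublet removal, with cells of 1 gate only and with cells capped at the 99th percentile, and 2 with a common minimum of 8089 UMIs, with TMM scaling and without the highest cell of each pool. In stromal cells the count of 2 became 1 with the common UMI minimum, with cells weighted equally and with capped cells, and 0 at 2-fold. In limbal cells it became 1 at 2-fold. The S100a4 ratio in stromal cells ran from 0.24 (capped cells) to 1.05 (common UMI minimum), S100a14 there from 0.54 to 1.29, S100a8 in limbal cells from 0.59 to 2.07, and S100a9 in basal cells from 1.40 to 1.67. The cause of the moved counts was not tested. Leaving out the highest cell and splitting stroma by Kera were chosen after seeing the data. No paired analysis was possible because there was 1 library per genotype, and for the same reason no replicate could be left out. Depth limits S100a8, S100a4 in epithelium and all surface values of WT, which rest on 53 cells.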

Other observations

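Of 9 further S100 genes with a row of their own, 4 reached 20 CPM in some gate of both libraries. S100a7a, the mouse relative of psoriasin, was a surface gene, with 1222 CPM in heterozygote and 1443 CPM in WT surface cells, against 36.5 and 29.7 CPM in basal cells. S100a13, which takes part in the release of growth factors that lack a signal peptide, had 243 CPM in heterozygote and 246 CPM in WT stromal cells, against 28.7 and 25.2 CPM in basal cells, and was also above basal cells in limbal (59.9 and 66.9 CPM) and surface cells (61.2 and 58.5 CPM). S100a1 had 139 and 125 CPM in stromal and 80.1 and 98.6 CPM in surface cells, against 40.4 and 41.6 CPM in basal cells. S100a3 had 27.0 and 21.6 CPM in wing cells and 16.8 and 30.8 CPM in limbal cells. S100g had no UMI in any gate, and none of the 6 fused S100 genes that could be read, whose proteins carry an S100 domain within a long repeat chain, reached 20 CPM.

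Partners of the family did not share one course. Anxa2, which binds S100a10, had 4493 CPM in heterozygote and 4608 CPM in WT surface cells, against 2480 and 2373 CPM in basal cells. Anxa1, which binds S100a11, ran the other way, with 459 and 344 CPM on the surface against 3807 and 3808 CPM in basal cells. Of the 5 annexin and scaffold genes, 4 were measured in surface over basal cells. Anxa2 and Anxa11 were at least 1.5-fold higher in both libraries, where 19.7% of 3553 genes were. Anxa1 and Ahnak were lower, where 61.7% of genes were. The median log2 ratio of all genes there was -1.35 in the heterozygote and -1.33 in the WT library, and TMM scaling raised each ratio by 1.43 and 1.37. Anxa11 had 213 and 280 CPM in surface cells and Ahnak 182 and 206 CPM, while Anxa6 was highest in stromal cells (62.3 and 74.7 CPM).

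Of the other binding partners, 4 were measured in surface over basal cells. Bsg, Myh9 and Cacybp were at least 1.5-fold lower in both libraries, where 61.7% of 3553 genes were. The count is therefore not read as a trait of these partners. With TMM scaling each log2 ratio was 1.43 higher in the heterozygote and 1.37 higher in the WT library. Bsg, which encodes the S100a9 receptor basigin, had 781 CPM in heterozygote and 795 CPM in WT stromal cells, 453 and 386 CPM in limbal cells, and 122 and 119 CPM in surface cells. Myh9 had 26.0 and 15.8 CPM and Cacybp 30.6 and 24.97 CPM on the surface. In limbal cells Cacybp had 73.1 and 62.4 CPM, Sugt1 45.9 and 44.3 CPM, Myh9 74.2 and 102 CPM and Ppfibp1 32.8 and 29.9 CPM. Dlc1 had 20.7 and 29.1 CPM and Nptn 23.5 and 30.3 CPM in stromal cells. The classical receptor genes Ager, Tlr4 and Cd36 stayed under 20 CPM in all gates of both libraries.

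In the plasmin system, to which S100a10 and annexin A2 belong, Plaur, the urokinase receptor, had 174 CPM in heterozygote and 235 CPM in WT limbal cells, against 110 and 134 CPM in basal cells. Plat had 95.8 and 82.5 CPM in limbal cells. Plg, which encodes plasminogen, had no UMI in any gate.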
